A study of Mus musculus with 8 samples.

Results

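The annexins are a family of calcium-dependent, phospholipid-binding proteins, and 10 of their genes were followed here through cells sorted by Dclk1 from mouse pancreas. Members were chosen by gene symbol (Anxa1 to Anxa9 and Anxa11), which gave 10 of the 23284 rows of the count table. Of these, 9 had enough reads to be tested and Anxa8 did not. The family was picked with earlier results of these libraries known, among them a difference in Anxa5, so the values and adjusted p-values of the members are given as a description.

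The 8 libraries were made from polyA RNA of pancreas cells of Dclk1-CreERT;tdtomato mice on a CBA x C57BL/6J background. Both groups carried the same alleles, a tamoxifen-inducible Cre tied to Dclk1 and a red fluorescent reporter. There were 4 libraries of cells labelled Dclk1 positive (Dclk1+, numbered 1 to 4) and 4 of cells labelled Dclk1 negative (Dclk1-, numbered 5 to 8). The labels give no age, sex, treatment or sorting gate, and do not say whether each library came from its own mouse, so p-values measure the spread between libraries, which may be technical. In such bulk samples fewer cells of a type and less RNA per cell cannot be told apart.

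An annexin has a core of repeats that binds phosphatidylserine and other acidic phospholipids when calcium rises, and a variable N-terminal tail that binds partners, often S100 proteins. Through this switch annexins take part in membrane repair, vesicle traffic and the control of inflammation. In glandular tissue several members, annexin A4 above all, are known from secretory and duct epithelia.

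Total counts ran from 6353841 to 10282911 per library, of which 8.90% to 34.2% fell on Rn45s, a ribosomal RNA gene. Dclk1 itself was at 17.9 to 221 CPM (counts scaled to a common library size by TMM) in Dclk1+ and at 2.67 to 15.04 CPM in Dclk1- libraries, with Dclk1+ library 4 the closest to the Dclk1- range. Of 7 tuft cell genes, Pou2f3 was at 1.10 to 1.66 CPM in Dclk1+ libraries against 0.147, 0, 0 and 1.34 CPM in Dclk1- libraries 5 to 8. Trpm5, Gfi1b, Avil and Il25 were at most 0.588, 2.84, 2.86 and 0.110 CPM in any library, and Chat had no count in any of the 8. Alox5ap was at 0.612 to 174 CPM in Dclk1+ libraries, highest in library 4, and at 6.68 to 27.5 CPM in Dclk1- ones. Libraries also differed in markers of other cells. The summed level of 7 fibroblast and stellate cell genes was 4554 to 25451 CPM in Dclk1+ libraries against 878 to 6815 CPM in Dclk1- ones. For 6 T lymphocyte genes it was 9.90 to 331 CPM against 576 to 2593 CPM, and for 5 B lymphocyte genes 21.4 to 468 CPM against 1685 to 2696 CPM. No gene of these 3 lists was at 0 in all libraries of a group. Dclk1+ library 4 stood apart in 6 macrophage and dendritic cell genes, summed at 5941 CPM against 45.0 to 993 CPM in the other 7 libraries. The sum of 6 acinar genes ran from 13442 to 57935 CPM in Dclk1+ and from 3156 to 65094 CPM in Dclk1- libraries.

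The sequences before the transcription start of 4 annexin genes are shown. Anxa4 and Anxa5 passed the test, and Anxa1 had the widest gap between Dclk1+ libraries of these 4 genes. Anxa2, which did not pass in edgeR, was chosen after the search because it shares with Anxa1 a TATA box, so that match is no separate result. RefSeq windows on GRCm38.p6 were at hand for 8 of the 10 members (all but Anxa3 and Anxa6). Each line gives the 250 bases before the outermost annotated start, 5′ to 3′ on the gene's own strand, and capitals mark matches on either strand to 5 motifs. The TATA box was searched as TATAAA, the CCAAT box by the letters of its name, the GC box as GGGCGG, the binding motif of AP-1 as TGANTCA and that of TEAD factors as GGAATG, and no marked matches overlap each other.
Anxa4, chr6:86793585-86793834, minus strand: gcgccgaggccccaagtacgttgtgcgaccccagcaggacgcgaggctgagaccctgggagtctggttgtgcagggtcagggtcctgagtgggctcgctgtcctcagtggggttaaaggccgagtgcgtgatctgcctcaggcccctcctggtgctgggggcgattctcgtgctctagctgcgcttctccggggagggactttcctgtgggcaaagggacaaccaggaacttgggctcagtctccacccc
Anxa5, chr3:36475888-36476137, minus strand: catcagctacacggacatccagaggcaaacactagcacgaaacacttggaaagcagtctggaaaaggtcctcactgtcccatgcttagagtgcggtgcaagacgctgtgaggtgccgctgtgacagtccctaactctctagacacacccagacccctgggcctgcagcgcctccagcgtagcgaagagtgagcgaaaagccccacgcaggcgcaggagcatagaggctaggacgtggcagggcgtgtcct
Anxa1, chr19:20390672-20390921, minus strand: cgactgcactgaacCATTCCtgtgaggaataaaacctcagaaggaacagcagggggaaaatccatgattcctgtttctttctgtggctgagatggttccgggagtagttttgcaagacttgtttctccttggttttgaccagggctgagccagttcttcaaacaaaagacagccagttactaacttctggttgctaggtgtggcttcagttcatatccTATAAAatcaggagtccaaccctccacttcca
Anxa2, chr9:69453433-69453682, plus strand: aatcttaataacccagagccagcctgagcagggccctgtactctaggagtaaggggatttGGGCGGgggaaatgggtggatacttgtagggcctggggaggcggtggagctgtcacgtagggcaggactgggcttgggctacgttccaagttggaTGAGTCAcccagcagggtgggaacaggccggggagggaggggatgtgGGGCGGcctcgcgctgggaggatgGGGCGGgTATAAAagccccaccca

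None of the 5 motifs was in the Anxa4 or Anxa5 window, and each of these held 13 CpG dinucleotides against a median of 6 over all 32851 windows of this length. Neither trait set these 2 genes apart. The Anxa8 and Anxa9 windows, not shown, also held none of the 5 motifs. Anxa9 had 30 CpG, Anxa11 17, Anxa2 9, Anxa8 4 and Anxa7 2. Anxa4 has 2 annotated starts, of which only the outermost was searched. The Anxa1 window held 2 CpG, a TATA box that began 32 bases before the start and a TEAD motif 236 bases before it. The Anxa2 window held a TATA box that began 17 bases before the start, 3 GC boxes and an AP-1 motif. Over all windows 12.4% held the TATA box, 32.7% the GC box, 33.8% the CCAAT box, 6.75% the AP-1 motif and 12.6% the TEAD motif. These matches describe letters in a window and not sites in use.

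Within the family, 2 of 9 tested members passed an adjusted p of 0.05 in edgeR's quasi-likelihood test, both higher in Dclk1+ cells, where 3.49% of the 13274 tested genes passed in either direction, 2.47% higher and 1.02% lower. None passed lower, either with edgeR, with DESeq2 or with limma-voom, and none had an unadjusted edgeR p under 0.05 in that direction. DESeq2 called 4 members higher (Anxa2, Anxa4, Anxa5 and Anxa9) and gave Anxa1 and Anxa3 no adjusted p. Of the 13126 genes with an adjusted p it called 17.4% higher and 8.62% lower. The log2 fold change was positive for 7 tested members and negative for Anxa6 and Anxa11. Its median over the 9 was 1.97, against -0.08 over all tested genes. The groups of 4 members (Anxa1, Anxa3, Anxa4 and Anxa5) did not overlap, all higher in Dclk1+, where 21.6% of tested genes had no overlap in either direction and 10.7% had none and were higher. Since the family was chosen with this contrast known, nothing is read from these shares.

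**Figure D1:**
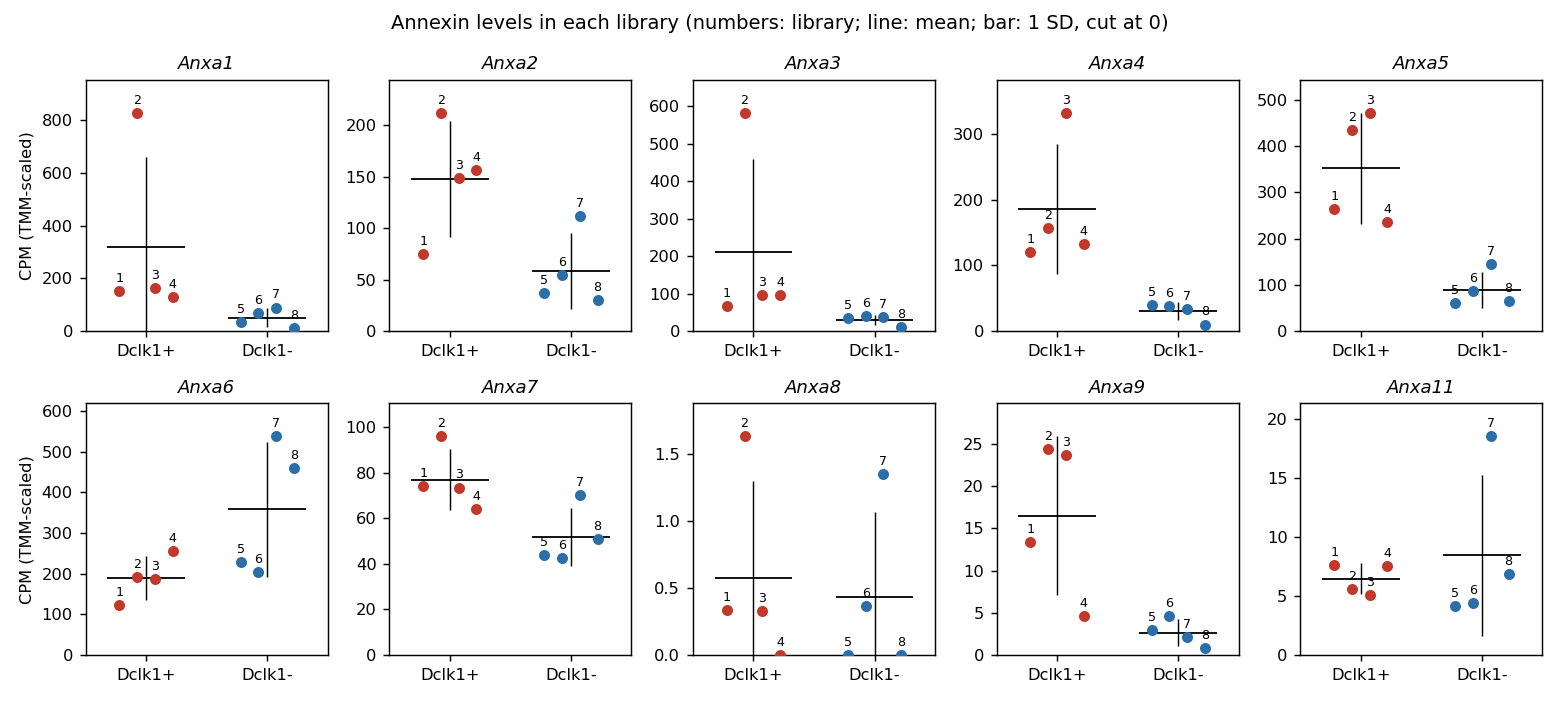
Level of each annexin gene in CPM (vertical axis, linear from 0, its own scale in each panel) in the 4 Dclk1+ (red) and 4 Dclk1- (blue) libraries, with library numbers, group means (lines) and 1 SD (bars, cut at 0). Anxa1, Anxa3, Anxa4 and Anxa5 do not overlap between groups, Anxa1 and Anxa3 stand out in Dclk1+ library 2, and Anxa6 is highest in Dclk1- libraries 7 and 8.

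Anxa5 and Anxa4 were the members past the threshold. The smallest edgeR adjusted p of any tested gene was 0.0467, so every call lay just under 0.05. Dclk1 itself did not pass (log2 fold change 3.40 ± 0.82, SE, edgeR adjusted p = 0.0503). Anxa5 encodes the annexin whose tagged form is the standard probe for phosphatidylserine on the surface of dying cells. Its level was 263, 435, 472 and 236 CPM in Dclk1+ libraries 1 to 4, and 61.3, 87.6, 145 and 64.8 CPM in Dclk1- libraries 5 to 8. The lowest Dclk1+ library was 1.63 times the highest Dclk1- library, and of the 4 genes without overlap Anxa5 had the smallest spread within Dclk1+, with a coefficient of variation of 33.9%. The estimated log2 fold change was 1.97 ± 0.40 (SE, with a 95% interval from 1.06 to 2.88, edgeR adjusted p = 0.0469).

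Anxa4, a member known from the apical side of secretory epithelia, was at 121, 157, 332 and 133 CPM in Dclk1+ libraries 1 to 4, against 39.7, 37.7, 33.99 and 10.2 CPM in the Dclk1- group (libraries 5 to 8). This was the clearest gap of the family, since the lowest Dclk1+ library lay 3.05 times above the highest Dclk1- library. The log2 fold change reached 2.61 ± 0.52 (SE, with a 95% interval from 1.45 to 3.77, edgeR adjusted p = 0.0469). Dclk1+ library 3, highest for Anxa4, also had the highest summed level of 8 duct and epithelial markers, at 4983 CPM against 162 to 1032 CPM in the other Dclk1+ and 41.4 to 113 CPM in the Dclk1- libraries. Of the 7 tested markers on that list 3 passed higher (Krt8, Sox9 and Spp1), all 7 were higher at an unadjusted edgeR p under 0.05 and by DESeq2, and their part in the Anxa4 result was not tested.

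Neither call held when a library other than Dclk1+ library 4 was left out, although the differences stayed large. With any 1 of the 8 libraries left out the log2 fold change of Anxa4 was 2.29 to 2.88 and that of Anxa5 was 1.81 to 2.38. Without Dclk1+ library 4 edgeR called 5 members higher, Anxa1, Anxa3, Anxa4, Anxa5 and Anxa9. Calls rose across the whole table in that fit, with 1640 of 13499 tested genes higher and 841 lower. Without any other single library edgeR called none of the 9, and no gene across the whole table. In those fits 5 to 7 members had an unadjusted p under 0.05, as did 23.0% to 29.2% of all tested genes, against 6 members and 31.9% with all libraries.

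**Figure D2:**
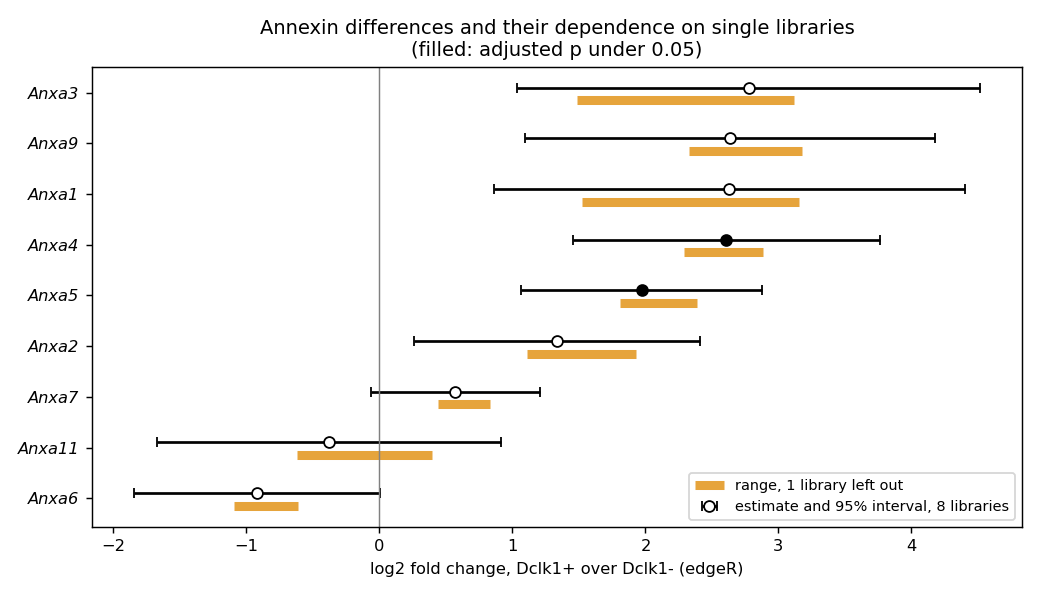
Log2 fold change of each tested annexin, Dclk1+ over Dclk1- (horizontal axis), with its 95% interval on 8 libraries (points and bars; filled points passed the threshold) and the range of estimates when 1 library is left out (orange). Anxa4 and Anxa5 have narrow ranges, Anxa1 and Anxa3 fall to 1.53 and 1.49 at the low end, and Anxa11 crosses 0.

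Anxa1 and Anxa3 were marked by a single library. Anxa1 encodes annexin A1, a glucocorticoid-induced protein that dampens inflammation through formyl peptide receptors. It was at 151, 829, 165 and 131 CPM in Dclk1+ libraries 1 to 4, and at 33.2, 69.99, 89.8 and 13.2 CPM in Dclk1- libraries 5 to 8. The groups did not overlap, and library 2 stood far above the other Dclk1+ libraries, which lay close together. The log2 fold change was 2.63 ± 0.79 (SE, edgeR adjusted p = 0.0682), and without library 2 it was 1.53.

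Anxa3, a member linked to vessel growth and to neutrophils, showed the same shape. Its level was 67.5, 584, 96.9 and 95.7 CPM in Dclk1+ libraries against 33.9, 40.2, 38.4 and 10.5 CPM in Dclk1- ones. Again the groups did not overlap and library 2 stood far above the rest. The log2 fold change, 2.78 ± 0.78 on all libraries (SE, edgeR adjusted p = 0.0606), was 1.49 without that library. DESeq2 gave neither gene an adjusted p, as for 148 of the 13274 tested genes, so it could not call them. Dclk1+ library 2 had the most Dclk1 (221 CPM) and the highest fibroblast and stellate marker sum (25451 CPM, the others of its group being at 4554 to 13486 CPM), which was not tested as a part of either result. None of those 7 markers was called by edgeR or limma-voom, 6 had an unadjusted edgeR p under 0.05, and DESeq2 called 6 higher.

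Anxa2 encodes the partner of S100a10 in a membrane-bound heterotetramer that docks plasminogen and its activator. Its level was 75.4, 212, 148 and 156 CPM in Dclk1+ libraries against 37.2, 54.7, 112 and 30.7 CPM in Dclk1- ones. Dclk1+ library 1 lay below Dclk1- library 7, so the groups overlapped, and the log2 fold change was 1.34 ± 0.48 (SE, edgeR adjusted p = 0.0975). DESeq2 called it (adjusted p = 0.0283).

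Anxa9, an atypical member whose human protein has lost most calcium binding in its core, was low but ordered in a similar way. It was at 13.4, 24.4, 23.7 and 4.56 CPM in Dclk1+ libraries against 2.94, 4.61, 2.12 and 0.835 CPM in Dclk1- ones. These levels rest on few reads, with 41 counts in Dclk1+ library 4 and 20, 38, 11 and 5 counts in Dclk1- libraries 5 to 8. Dclk1+ library 4 and Dclk1- library 6 were nearly equal, and the other Dclk1+ libraries lay clear of all Dclk1- libraries. Its log2 fold change was 2.63 ± 0.69 (SE, edgeR adjusted p = 0.0543), with an adjusted p of 0.00101 in DESeq2 and 0.105 in limma-voom. In GENCODE, 3.42% of its exon bases overlap Mindy1 on the opposite strand (Fam63a in the count table), and counting is not stated to use strand, so reads there cannot be told apart.

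Anxa6 went the other way in level. It encodes the largest annexin, with a duplicated core, and is known from membrane cholesterol and endosome traffic. Its level was 122, 191, 187 and 256 CPM in Dclk1+ libraries 1 to 4, and 229, 204, 538 and 459 CPM in Dclk1- libraries 5 to 8. Dclk1- libraries 7 and 8 were high, while libraries 5 and 6 lay inside the Dclk1+ range. The estimate was -0.92 ± 0.41 as log2 fold change (SE, 95% interval -1.84 to 0.0039, edgeR adjusted p = 0.158), and without libraries 7 and 8 together it was -0.12. Those 2 libraries also had the highest sums of T lymphocyte markers (2593 and 2048 CPM) and of B lymphocyte markers (2696 and 2514 CPM), and Dclk1+ library 4, with the most Anxa6 of its group, had the highest of its group for both (331 and 468 CPM). The same libraries had the largest share of counts on Rn45s, 34.2% and 26.1% in Dclk1- libraries 7 and 8 and 18.3% in Dclk1+ library 4, with 8.90% to 14.3% in the other 5, and libraries 7 and 8 had the fewest genes detected (14121 and 13958). Of these 11 markers, each with a negative log2 fold change, edgeR called 2 lower and DESeq2 and limma-voom all 11. Across all genes edgeR called 1.02% lower, DESeq2 8.62% of those with an adjusted p, and limma-voom 475 of 13274. The part of these markers and of RNA quality in the Anxa6 values was not tested.

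Anxa7, a founding member known for fusing chromaffin granule membranes, was the steadiest gene of the family. It was at 74.2, 96.0, 73.5 and 64.1 CPM in Dclk1+ libraries against 43.8, 42.3, 70.3 and 50.9 CPM in Dclk1- ones. Only Dclk1- library 7 reached into the Dclk1+ range, and Anxa7 did not pass (log2 fold change 0.57 ± 0.28, SE, interval at 95% from -0.07 to 1.21, edgeR adjusted p = 0.195). Anxa11, whose protein links RNA granules to lysosomes, was at 7.66, 5.61, 5.07 and 7.55 CPM against 4.11, 4.37, 18.5 and 6.85 CPM. Its groups overlapped (log2 fold change -0.38 ± 0.58, SE, edgeR adjusted p = 0.674), and without Dclk1- library 7 the value turned to 0.40.

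Anxa8 was at or near the limit of detection, with 3, 16, 3 and 0 counts in the Dclk1+ and 0, 3, 7 and 0 counts in the Dclk1- libraries. A count of 0 allows up to 0.333 CPM in Dclk1+ library 4 and up to 0.441 and 0.501 CPM in Dclk1- libraries 5 and 8, by counting error only. Of the family genes outside the members, Anxa10 had 1 count in all 8 libraries. Anxa13, the oldest branch of the vertebrate family and an epithelial gene, was at 15.8, 2.24, 28.5 and 5.0 CPM in Dclk1+ libraries against 2.50, 0.364, 0 and 0 CPM in Dclk1- ones. Dclk1+ library 2 fell within the Dclk1- range, and Anxa13 did not pass (log2 fold change 4.11 ± 1.32, SE, edgeR adjusted p = 0.0765).

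To set members beside each other, levels were divided by exon length, since a longer mRNA gives more reads. This length merges all annotated exons of a gene, with 1777 bases for Anxa5, 2930 for Anxa6 and 5991 for Anxa7. The mRNA present may be shorter, by an amount that can differ between genes. The order of members and their shares of the annexin pool therefore depend on this choice. In Dclk1+ libraries Anxa5 had the highest mean, 198 ± 67.1 CPM per kb of exon (SD, n = 4), followed by Anxa1 at 109.6 ± 117, Anxa6 at 64.5 ± 18.6 and Anxa3 at 57.9 ± 68.3 CPM per kb. Anxa4 and Anxa2 came next at 40.0 ± 21.3 and 39.7 ± 15.1 CPM per kb. The library ranges of neighbours in this order overlapped from Anxa5 down to Anxa2, and the step from Anxa2 to Anxa7 at 12.8 ± 2.26 CPM per kb was the first without overlap. Anxa9 at 7.97 ± 4.54, Anxa11 at 1.57 ± 0.321 and Anxa8 at 0.305 ± 0.384 CPM per kb closed the list. Library 2 set the places of Anxa1 and Anxa3, since without it their Dclk1+ means were 51.2 ± 5.93 and 23.8 ± 4.56 CPM per kb (SD, n = 3), with Anxa1 then below Anxa6 and Anxa3 below Anxa4 and Anxa2.

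The order in Dclk1- libraries began with Anxa6 at 122 ± 56.7 CPM per kb of exon (SD, n = 4), then Anxa5 at 50.5 ± 21.8 and Anxa1 at 17.7 ± 11.9 CPM per kb. Anxa6 was the most abundant annexin per length in each of the 4 Dclk1- libraries and Anxa5 the second. Anxa5 was first in Dclk1+ libraries 1, 3 and 4, and Anxa1 was first in library 2. Below Anxa1 the means of Anxa2, Anxa7, Anxa3 and Anxa4 ran from 15.7 ± 9.87 down to 6.54 ± 2.94 CPM per kb with overlapping ranges, and Anxa11, Anxa9 and Anxa8 were lowest.

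**Figure D3:**
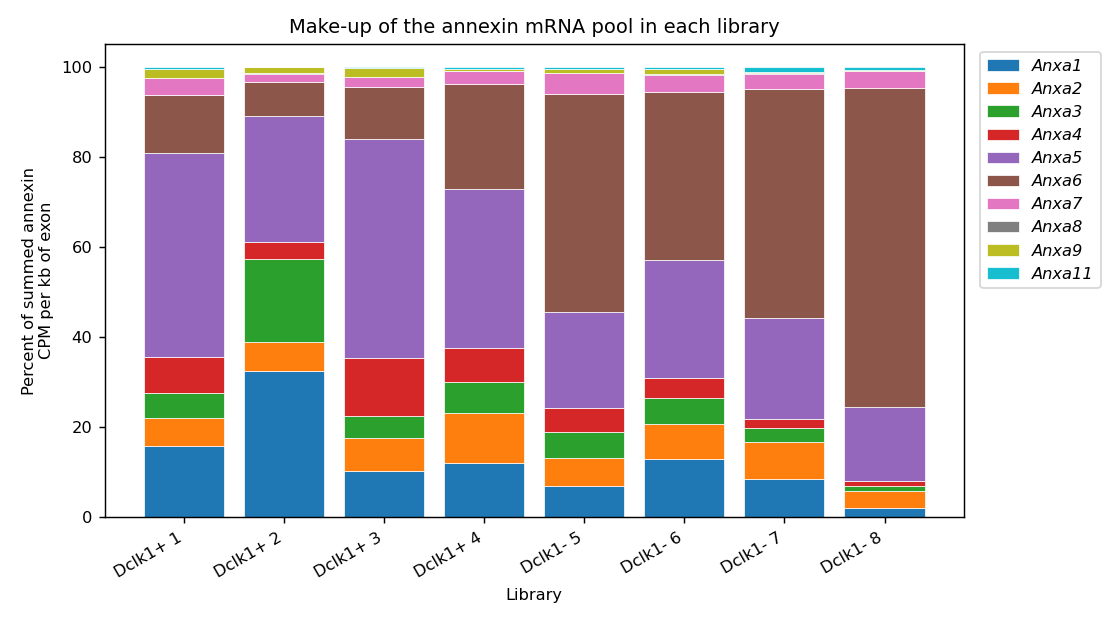
Percent of the summed annexin CPM per kb of exon that each member held (vertical axis, stacked bars) in each of the 8 libraries (horizontal axis). Anxa6 (brown) held 7.45% to 23.2% in Dclk1+ and 37.2% to 70.7% in Dclk1- libraries, and Anxa5 (purple) held 28.0% to 48.4% and 16.5% to 26.3%.

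The make-up of the annexin pool separated the groups by Anxa6 and Anxa5. Anxa6 held 12.7%, 7.45%, 11.6% and 23.2% of the summed CPM per kb in Dclk1+ libraries 1 to 4, and 48.4%, 37.2%, 50.7% and 70.7% in Dclk1- libraries 5 to 8. The ratio of Anxa5 to Anxa6 in CPM, which does not depend on library scaling, was 2.16, 2.28, 2.53 and 0.924 in Dclk1+ and 0.267, 0.429, 0.270 and 0.141 in Dclk1- libraries. The groups did not overlap in this ratio, Dclk1- libraries 5 and 7 were nearly equal, and Dclk1+ library 4 was closest to the Dclk1- range. The same held for Anxa2 to Anxa6, at 0.611 to 1.11 against 0.0669 to 0.268. A ratio within a library shows unequal change and not which gene moved. The total of the 10 members was 1505 ± 733 CPM for Dclk1+ against 682 ± 254 CPM for Dclk1- (SD, n = 4 each), with Dclk1+ library 1 (895 CPM) below Dclk1- library 7 (1049 CPM). Without Anxa6 the sums were 773 to 2344 CPM and 188 to 511 CPM.

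**Figure D4:**
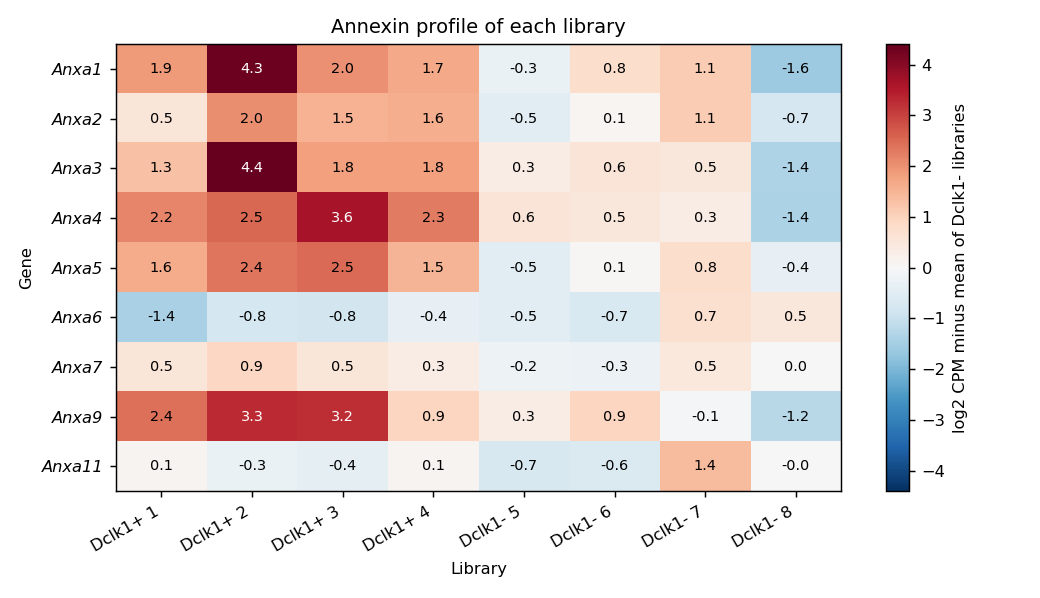
Log2 CPM of the 9 tested annexins (rows) in each library (columns), less the gene's mean over the Dclk1- libraries, in color and printed in each cell. Dclk1+ library 2 is highest for Anxa1 and Anxa3, library 3 for Anxa4, and Dclk1- library 8 is lowest for Anxa1, Anxa2, Anxa3, Anxa4 and Anxa9.

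Members also differed in how they varied within groups. Anxa1 and Anxa3 were most alike, with a Pearson correlation of 0.932 and a Spearman correlation of 0.952 between their deviations from the group means of log2 CPM over the 8 libraries. Without the 2 libraries farthest from the median of Anxa1 the Pearson value was 0.876. Anxa2 and Anxa5 had a Pearson value of 0.794 and a Spearman value of 0.5. Anxa6 ran opposite to Anxa9, with a Pearson value of -0.597 and a Spearman value of -0.667. These values describe 8 libraries that share depth and cell content. Among the other 8956 genes with at least 10 CPM on average, the closest to Anxa6 were Fis1, a mitochondrial fission factor (0.998), and the proteasome subunit gene Psmb7 (0.994). For Anxa5 they were the imprinted gene Mest (0.985) and the collagen gene Col6a6 (0.972), and for Anxa1 they were Rab28 (0.994) and Kdelc2 (0.990). Each is among the best matches of 8956 genes over only 8 libraries.

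The 7 lists of partner and pathway genes held 56 tested genes, of which 6 passed higher and none lower with edgeR, while DESeq2 called 21 higher and 1 lower. Over all tested genes edgeR called 2.47% higher and 1.02% lower. DESeq2 called 17.4% higher and 8.62% lower of the 13126 genes to which it gave an adjusted p. With limma-voom 7 of the 56 passed higher and 1 lower, where 407 of all 13274 tested genes passed higher and 475 lower. Before adjustment, 22 of the 56 had an edgeR p under 0.05 and were higher, and 4 were lower. Of all tested genes 31.9% reached that p in either direction. The edgeR, DESeq2, limma-voom and unadjusted counts of the lists below are to be read against these values. Without any single library other than Dclk1+ library 4 edgeR called none of the list genes. Without Dclk1+ library 4 it called 18 list genes higher and 1 lower. In that fit it called 1640 of all 13499 tested genes higher and 841 lower.

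The S100 proteins, small calcium sensors that clasp annexin tails, gave no call among 6 tested genes with edgeR or limma-voom. Their log2 fold changes were all positive with a median of 1.32, 2 of the 6 had an unadjusted edgeR p under 0.05, near the share of all genes, and DESeq2 called 2. S100a6, a partner of annexins A2 and A11, was at 213, 685, 164 and 152 CPM in Dclk1+ libraries against 28.8, 71.1, 144 and 36.1 CPM in Dclk1- ones. Its groups did not overlap, although Dclk1- library 7 came close, and its peak was in library 2 as for Anxa1 (log2 fold change 2.12 ± 0.67, SE, edgeR adjusted p = 0.0754). S100a11, the partner of annexin A1, was at 142, 312, 169 and 155 CPM against 38.2, 63.6, 195 and 91.2 CPM, with overlap through Dclk1- library 7 (edgeR adjusted p = 0.203). S100a10, the partner of annexin A2, named here after its values were seen, was at 64.6 to 273 CPM against 68.3 to 240 CPM (log2 fold change 0.15 ± 0.57, SE, edgeR adjusted p = 0.880).

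The penta-EF-hand proteins that bind annexins A7 and A11 gave no call among 4 tested genes with edgeR or limma-voom (median -0.11, 1 with an unadjusted edgeR p under 0.05 and 1 called higher by DESeq2). Sri, which encodes sorcin, was at 81.3 to 111 CPM in Dclk1+ libraries against 76.2 to 152 CPM in Dclk1- ones, and Pdcd6, which encodes the calcium sensor ALG-2, at 22.1 to 43.5 CPM and 28.4 to 63.5 CPM. Both pairs of ranges overlapped widely, with log2 fold changes of -0.12 ± 0.31 and -0.17 ± 0.36 (SE).

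Among 15 tested genes of membrane repair and caveolae, Myof passed higher and none passed lower (median 1.23). Myof encodes myoferlin, a ferlin that acts with annexins at membrane wounds. It was at 144, 331, 198 and 134 CPM in Dclk1+ libraries against 33.9, 58.1, 22.8 and 16.9 CPM in Dclk1- ones, so the lowest Dclk1+ library was 2.30 times the highest Dclk1- library (log2 fold change 2.61 ± 0.48, SE, edgeR adjusted p = 0.0469). Of 11 scramblase and flippase genes, which set how much phosphatidylserine faces outward, Atp11a alone passed (median 0.75), with 3 higher and 2 lower at an unadjusted p under 0.05. Those lower, named after their values were seen, were the flippase genes Atp8a1 and Atp11b, with log2 fold changes of -1.27 ± 0.53 and -1.02 ± 0.45 (SE, edgeR adjusted p = 0.135 and 0.156). The flippase gene Atp11a was at 228, 218, 231 and 101 CPM in Dclk1+ libraries against 62.6, 74.2, 41.1 and 31.7 CPM in Dclk1- ones (log2 fold change 1.89 ± 0.40, SE, edgeR adjusted p = 0.0469). Its Dclk1+ library 4 was the nearest to the Dclk1- values.

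The genes of phosphatidylserine binding and of the uptake of dying cells had a median of 2.51. Of 10 tested genes 9 had a positive log2 fold change, and 3 passed higher with edgeR, Mfge8, Gas6 and Pros1. The 1 negative gene was Havcr1, named after its values were seen (log2 fold change -2.48 ± 1.20, SE, edgeR adjusted p = 0.186). Mfge8 encodes a bridge between phosphatidylserine and integrins, and was at 223, 103, 109 and 56.9 CPM in Dclk1+ libraries against 12.5, 21.5, 27.8 and 18.2 CPM in Dclk1- ones. Gas6 and Pros1 encode bridging ligands of the TAM receptor kinases. Gas6 was at 229, 100.2, 314 and 228 CPM against 26.003, 42.9, 56.0 and 14.9 CPM, and Pros1 at 126, 238, 113 and 85.8 CPM against 18.1, 44.9, 30.3 and 12.5 CPM. None of the 3 overlapped between groups, and their log2 fold changes were 2.62 ± 0.46, 2.64 ± 0.50 and 2.41 ± 0.49 (SE, edgeR adjusted p = 0.0467 for Mfge8 and 0.0469 for each of the other two).

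Among genes of plasminogen activation, 5 were tested and none passed with edgeR (median 2.22, 3 higher and 1 lower at an unadjusted p under 0.05). DESeq2 called 3 higher and 1 lower, and limma-voom called 1 lower. The lower gene, named after its values were seen, was Plaur, which encodes the urokinase receptor. It was at 12.3, 3.57, 8.82 and 8.55 CPM in Dclk1+ libraries against 28.2, 25.2, 21.4 and 24.2 CPM in Dclk1- ones, with no overlap (log2 fold change -1.57 ± 0.42, SE, edgeR adjusted p = 0.0549). Plat, which encodes the tissue activator that annexin A2 docks, was at 77.9, 363, 84.8 and 37.2 CPM in Dclk1+ libraries against 8.52, 24.4, 42.3 and 10.02 CPM in Dclk1- ones, with library 2 again highest and library 4 below Dclk1- library 7 (edgeR adjusted p = 0.0655). Plau, the urokinase gene, did not overlap between groups but did not pass (log2 fold change 2.22 ± 0.71, SE, edgeR adjusted p = 0.0758). The list of annexin A1 receptors and phospholipases A2 had 5 tested genes and none of them a receptor: the phospholipase A2 genes Pla2g4a, Pla2g6 and Pla2g2d, and Alox5 and Alox5ap of leukotriene synthesis. Their median was 1.28, and Pla2g4a alone passed, higher. Pla2g4a encodes the cytosolic phospholipase A2 that annexin A1 inhibits, and was at 31.6, 88.1, 28.6 and 29.0 CPM in Dclk1+ libraries against 4.70, 13.2, 9.08 and 3.01 CPM in Dclk1- ones (log2 fold change 2.56 ± 0.59, SE, edgeR adjusted p = 0.0492). The formyl peptide receptor genes Fpr1, Fpr2 and Fpr3 had too few reads to be tested.

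**Figure D5:**
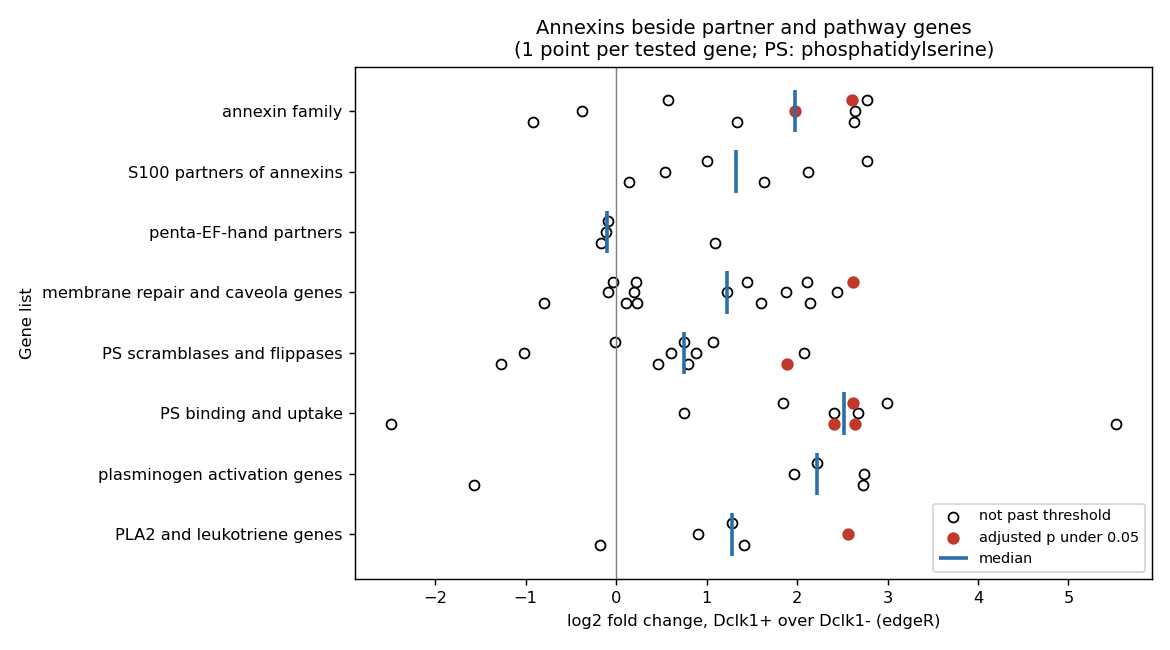
Log2 fold change, Dclk1+ over Dclk1- (horizontal axis), of each tested gene of the annexin family and of the 7 partner and pathway lists (rows), with the median of each list (blue line); red points passed an adjusted p of 0.05 in edgeR. The median was 1.97 for the annexins, from -0.11 for penta-EF-hand partners to 2.51 for genes of phosphatidylserine binding and uptake.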

How the data were processed

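The deposited values are raw read counts per gene symbol, 1 column per library, which per the submitters' processing notes were made by the authors with bcl2fastq 1.8.4 and HTSeq 0.6.1 on mm9. Bowtie 0.12.7 and TopHat are listed there for 7 libraries, and Dclk1- library 5 has TopHat2 2.0.4 with Bowtie2 2.0.0 instead. Not given in the sources used here are the annotation, filters and strand use. Per the labels' protocols, RNA with an integrity number above 8 was amplified (Ovation V2) before TruSeq preparation. The test ran in edgeR 4.0.16 under R 4.3.3 (filterByExpr, minimum count 10 and total 15, TMM, quasi-likelihood F test, group alone), adjusted by Benjamini and Hochberg over 13274 genes. SEs come from the F statistic. Alternatives used DESeq2 1.42.0 and limma-voom 3.58.1, other filters and scaling, and left-out libraries. Lengths are merged GENCODE M21 exons (GRCm38), and promoter windows are from RefSeq. No library pair was identical. The edgeR step was run on simulated counts with less spread than these libraries and with larger changes than those of Anxa4 and Anxa5. That run therefore cannot show power or false calls at the spread of these data. Members, lists and the rule for named genes (all members, Anxa10, Anxa13, Dclk1, called list genes or else the 2 most abundant, and the 2 nearest profiles of 3 members) were chosen with earlier results of these data known. Markers and genes outside it were named after their values were seen.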

Additional observations from a re-analysis of the deposited data

Results flagged for a closer look

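In a group of 4 libraries, a value was singled out when its gap to the nearest library took a share of the group's range above Dixon's 95% critical value. Of 20 gene and group combinations 3 did so. The chance rate of about 1 in 20 holds for independent, normally distributed values. CPM were used here without logs and the genes share libraries, so the count is not read against that rate. Anxa1 in Dclk1+ library 2 was at 829 CPM, with the next library at 165 CPM (gap 0.951 of the range). Anxa3 in the same library was at 584 CPM, with the next at 96.9 CPM (0.943 of the range). Anxa4 in Dclk1+ library 3 was at 332 CPM, with the next at 157 CPM, a gap of 0.831 of the range and so barely past the limit.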

How the results depend on the processing

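No paired analysis was possible because the library numbers in the labels are not shared between groups. Of the edgeR counts on 8 libraries (2 annexins higher and 0 lower, 328 genes higher and 135 lower, 6 pathway list genes higher and 0 lower), those without 1 library ran from 0 to 5 annexins higher, 0 to 1640 and 0 to 841 genes, and 0 to 18 and 0 to 1 list genes, with 0 for all but Dclk1+ library 4. Leaving out Dclk1- libraries 7 and 8 together, chosen after seeing the data, gave 0 annexins, 0 genes higher, 0 lower and 0 list genes, with 7 annexins and 24.8% of all genes at an unadjusted p under 0.05. With no filter on low counts there were 4 annexins higher, 793 genes higher and 264 lower, with the stricter filter 567 and 227, with RLE scaling 665 higher and without Rn45s 543 higher. DESeq2 gave 4 annexins and 2290 genes higher, 1132 lower, and 21 list genes higher and 1 lower, and limma-voom 475 genes lower and 1 list gene lower. Of the calls 70.8% were higher in edgeR with TMM, 46.2% with limma-voom, and 66.1% to 78.2% in the other fits with calls. The Anxa11 log2 fold change ran from -0.62 to 0.40 without 1 library (0.40 without Dclk1- library 7) and turned to 0.69 without libraries 7 and 8. The list medians kept their sign except for penta-EF-hand partners (-0.26 to 0.26 without 1 library, 0.59 without Dclk1- libraries 7 and 8) and for phospholipase A2 and leukotriene genes (-0.15 with limma-voom, 0.057 to 1.61 without 1 library, the lowest without Dclk1+ library 4). The membrane repair median ran from 0.53, without Dclk1+ library 1, to 1.44. The causes were not tested. The other 8 tested annexins kept their direction in all 15 alternatives. Depth limits Anxa8, Anxa9 and Anxa11, where 1 count was worth 0.102 to 0.193 CPM.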
